A study of Homo sapiens with 6 samples.

Results

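The amino acid response genes examined here are CHAC1, ATF4 and 30 further genes that are known as members or targets of the ATF4 pathway, 32 in all. They comprise transcription factors, stress regulators, enzymes of serine, folate, proline and asparagine metabolism, amino acid transporters and a few other targets. They were chosen by measured values, namely the difference between shDYRK1A and shControl in the same 6 libraries, and were found by their gene symbols. Of the 32 genes, 31 are among the 23030 genes of the deposited normalized table, and 30 passed the expression filter that left 9697 genes for testing. VLDLR was below that filter, and ALDH1L2 had at most 2 raw counts in any library.

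T98G is a human glioblastoma cell line. It was infected with a lentivirus carrying a control hairpin (shControl) or a hairpin against the protein kinase DYRK1A (shDYRK1A), kept in puromycin for 48 to 72 h to select infected cells and left without it for 24 h. Messenger RNA was sequenced in 3 libraries per condition, named 1A, 1B and 1C. Equal numbers of T98G cells had been mixed with a fixed number of Drosophila Kc167 cells, so that fly reads gave an external scale. Both conditions share the virus, the selection and the recovery, and the DYRK1A condition rests on a single hairpin. The study's methods say in general that its experiments were repeated independently, but the labels do not say whether 1A, 1B and 1C were separate infections or cultures. The errors and p-values given here measure the spread between these libraries, and part of it may be technical. Values of 3 libraries are given in the order 1A, 1B and 1C.

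When amino acids run short, uncharged tRNAs activate the kinase GCN2, which phosphorylates the translation factor eIF2alpha. Stress in the endoplasmic reticulum, haem shortage and double-stranded RNA reach the same factor through the kinases PERK, HRI and PKR. Most translation is then slowed, while upstream reading frames let the ATF4 messenger be translated more, and ATF4 protein, paired with C/EBP factors, switches on genes for amino acid uptake, amino acid synthesis, tRNA charging and redox balance. Since ATF4 is controlled largely through translation, its messenger level, which is what was measured here, is not a measure of its protein. In glioblastoma, as in other fast-growing tumours, this pathway is known for keeping up the supply of serine, glycine, asparagine and glutathione.

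Gene counts summed to between 33708297 and 42154438 per library, and no pair of libraries of the same condition agreed within sampling noise. Spike-in normalized counts are the raw counts divided by 1 size factor per library, which ranged from 0.821 to 1.03 in shControl and from 1.06 to 1.21 in shDYRK1A. On this scale the median log2 fold change of all 9697 genes was -0.40, and it was 0.00 after TMM scaling, which centres the human genes on each other. A lower spike-in normalized count cannot tell fewer T98G cells in the mixture from less RNA per cell. DYRK1A itself had 2119 ± 194 normalized counts in shControl and 1274 ± 213 in shDYRK1A (SD, n = 3), a log2 fold change of -0.73 (edgeR quasi-likelihood test, adjusted p = 5.33e-06). After TMM scaling it was at -0.335, short of the fold threshold of 0.7 (same test, adjusted p = 0.000591). On the spike-in scale it also fell short of that threshold when shControl 1A (-0.696), shControl 1B (-0.693) or shDYRK1A 1B (-0.615) was left out. VIM and CD44, markers of this line's mesenchymal state, had between 1401 and 1975 CPM, the raw count scaled to the total of human gene counts in the library. FN1, also chosen as a marker of this line, had 613 to 923 CPM, but NES, chosen likewise, had only 1.29 to 2.02. The astroglial markers GFAP and SOX2 had at most 0.0949. The leukocyte, endothelial, neuronal and oligodendrocyte markers were below 0.6 CPM in each library, and the epithelial marker EPCAM reached 1.68. The library shDYRK1A 1B had the largest share of unmapped reads, 15.6%, against 8.44 to 11.9% in the others.

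CHAC1 had the lowest log2 fold change of the listed genes and the third lowest of all 9697 genes. The gene (ENSG00000128965, GRCh38 chromosome 15, 40952962 to 40956519, plus strand, protein coding) encodes a cytosolic gamma-glutamylcyclotransferase that breaks down glutathione, and it is a well-known target of ATF4 and CHOP. The 3 shControl libraries held 851, 1051 and 838 normalized counts of it, and the 3 shDYRK1A libraries 255, 247 and 268. The groups were far apart, and the 3 shDYRK1A libraries lay close to each other. The means were 913 ± 119 and 257 ± 10.3 (SD, n = 3), so that 28.1% of the control level was left, and the log2 fold change was -1.83 (SE 0.17). It was -1.42 after TMM scaling, with 17.7, 21.97 and 20.9 CPM against 6.96, 7.92 and 8.04 CPM. The filter asks for a mean above 10 CPM over all libraries, and CHAC1 passed it through shControl, with shDYRK1A below 10. Its rank comes from the difference by which it was chosen and is a description.

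ATF4 (ENSG00000128272, chromosome 22, 39519695 to 39522685, plus strand, protein coding), the factor at the centre of the response, stood much closer to the bulk of genes. Control libraries had 28029, 27291 and 23067 normalized counts of it, against 19077, 17464 and 17071 after silencing. The groups did not overlap, and shControl 1C was the lowest control. On this scale the median log2 fold change of all genes was -0.40, and the share of all genes without overlap was not counted. The log2 fold change was -0.55 (SE 0.13), and it was -0.14 (SE 0.05) after TMM scaling. Of its control level 68.4% was left, and its fold change took rank 2849 of 9697 from the lowest. Per 100 ATF4 counts there were 3.04, 3.85 and 3.63 CHAC1 counts in shControl and 1.34, 1.42 and 1.57 in shDYRK1A, a ratio within each library that no scaling can alter.

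ATF4 and its partners are known to bind short elements in front of their targets. The C/EBP-ATF response element (CARE, TGATGNAA) and the cAMP response element (CRE, TGACGTCA) were searched on both strands in RefSeq promoter windows of GRCh38.p14, from 250 bases before to 50 bases after each gene's start. A window was found for 26 of the 32 genes. The 250 bases before the start are shown for CHAC1, the most reduced gene, for ASNS and ATF3, both with a CARE on the gene's own strand, and for PPP1R15A, the single listed gene with the CRE. Each is read 5′ to 3′ on the gene's strand, and capitals mark the CARE or CRE.
CHAC1, chr15:40953221-40953470, plus strand: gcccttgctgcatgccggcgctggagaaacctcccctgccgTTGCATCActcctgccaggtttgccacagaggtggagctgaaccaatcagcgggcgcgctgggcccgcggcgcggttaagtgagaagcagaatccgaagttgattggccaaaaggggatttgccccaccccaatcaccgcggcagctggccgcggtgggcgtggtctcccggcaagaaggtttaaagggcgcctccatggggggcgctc
ASNS, chr7:97872409-97872658, minus strand: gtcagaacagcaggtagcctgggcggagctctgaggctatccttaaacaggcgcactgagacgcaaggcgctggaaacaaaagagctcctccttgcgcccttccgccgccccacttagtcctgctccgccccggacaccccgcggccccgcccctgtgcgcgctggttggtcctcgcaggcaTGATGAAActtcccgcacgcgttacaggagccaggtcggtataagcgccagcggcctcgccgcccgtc
ATF3, chr1:212565157-212565406, plus strand: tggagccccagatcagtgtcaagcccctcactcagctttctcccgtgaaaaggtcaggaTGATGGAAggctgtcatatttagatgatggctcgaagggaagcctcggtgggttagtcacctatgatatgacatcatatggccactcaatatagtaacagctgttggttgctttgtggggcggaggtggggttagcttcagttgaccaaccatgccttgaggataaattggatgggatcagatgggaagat
PPP1R15A, chr19:48872171-48872420, plus strand: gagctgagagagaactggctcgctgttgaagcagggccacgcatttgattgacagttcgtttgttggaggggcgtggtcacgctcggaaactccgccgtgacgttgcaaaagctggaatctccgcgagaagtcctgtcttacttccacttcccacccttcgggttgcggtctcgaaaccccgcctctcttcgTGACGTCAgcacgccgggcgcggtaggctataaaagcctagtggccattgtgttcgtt

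The CARE letters were in 5 of the 26 windows, 19.2%. Counted from the start of the gene, their first base was at -209 in CHAC1, where they lie on the opposite strand and are therefore printed as TTGCATCA, at -191 in ATF3 and at -68 in ASNS. SLC3A2 and SLC7A1 have them after the start, with the first base at 38 and 8, in SLC3A2 on the opposite strand. Of all 35116 windows 3.62% hold the CARE, and of the 7594 windows of genes tested here 1.49%. The CRE was in 1 of 26 windows, 3.85%, against 1.85% of all windows and 3.62% of those of tested genes. The CCAAT box, a common promoter element (CCAAT), was in 13 of 26 windows, 50%, against 34.6% and 37.3%. TCTCGCGAGA, the palindrome that the study connects with DYRK1A on chromatin, was in 0 of the 26 windows, against 0.424% of all windows and 1.08% of those of tested genes. These are matches of letters in a short window and show no binding. Since the listed genes are known members or targets of the ATF4 pathway, their CARE share is no independent result of these data. The 5 genes with a CARE were spread over the range of log2 fold changes: CHAC1 and SLC7A1 were at -1.83 and -1.32, SLC3A2 and ASNS at -0.86 and -0.72, and ATF3 at -0.17. The starts used by RefSeq for CHAC1, ASNS, ATF3 and PPP1R15A lie inside the genes as GENCODE v29 draws them, so each printed window overlaps its annotated gene. That of CHAC1 lies wholly inside it.

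Across the group, 16 of the 30 genes past the filter were called lower in shDYRK1A, meaning a log2 fold change beyond 0.7 with an adjusted p under 0.05, and 0 were called higher. Of all 9697 genes 14.3% were called lower and 0.278% higher. Because the genes were chosen with this difference known, these counts are a description. The median log2 fold change was -0.73 for the 30 genes and -0.40 for all genes, 25 of the 30 lay below the median of all genes, and 13 lay in the lowest decile, below -0.77. With the adjusted p alone, 27 were lower, and so were 63.4% of all genes. After TMM scaling 7 were called lower and 0 higher, where 1.93% of all genes were called lower and 1.25% higher. Those 7 are CHAC1, PSAT1, XPOT, DDIT4, SLC7A1, SLC7A5 and JDP2, of which CHAC1 and JDP2 passed the filter through shControl. With the adjusted p alone under TMM scaling 22 were lower and 3 higher, against 28.6% and 27.3% of all genes.

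**Figure D1:**
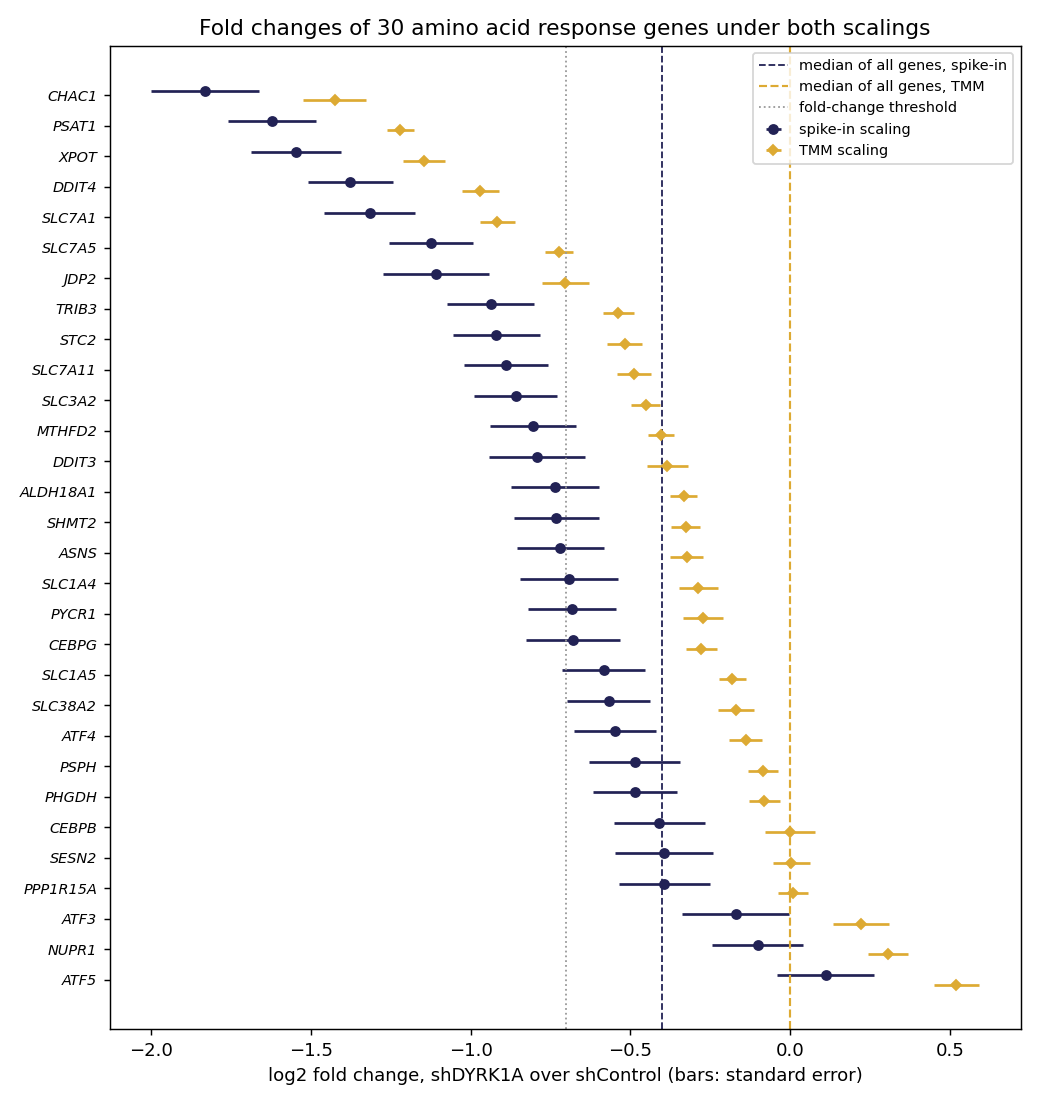
Log2 fold change of shDYRK1A over shControl for the 30 genes past the filter, on the spike-in scale (circles) and after TMM scaling (diamonds), with standard errors. Dashed lines mark the median of all genes, -0.40 and 0.00, and the dotted line the threshold of 0.7 below zero. The order of genes is alike on both scales, from CHAC1 at -1.83 and -1.42 to ATF5 at 0.11 and 0.52.

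In CPM, which needs no fly reads, each shDYRK1A library lay below each shControl library for 23 of the 30 genes, as it did for 29.3% of all genes. Each lay above for 3 genes, ATF5, NUPR1 and ATF3, as it did for 33.5% of all genes. The groups overlapped for the remaining 4, PHGDH, SESN2, CEBPB and PPP1R15A. Together the 32 genes took 0.643, 0.653 and 0.656% of the human counts in shControl and 0.506, 0.490 and 0.503% in shDYRK1A. The means were 0.651 ± 0.00671% and 0.500 ± 0.00834% (SD, n = 3), and they differed by -0.151 percentage points. Without SLC38A2, the gene with the largest count, the difference was -0.144.

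The size of the step between conditions was shared out unevenly over the libraries. On the spike-in scale shControl 1C was the lowest control for 30 of the 30 genes, as it was for 99.1% of all genes. In the same way shDYRK1A 1B was the lowest silenced library for 24 of the 30, as it was for 79.8% of all genes. In CPM shDYRK1A 1B was still the lowest for 14 of 30 genes, against 53.2% of all genes. By contrast shControl 1C was the lowest control in CPM for 3 of 30 genes, against 27.7% of all genes. The part of the size factors and of the unmapped reads in these orders was not tested.

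**Figure D2:**
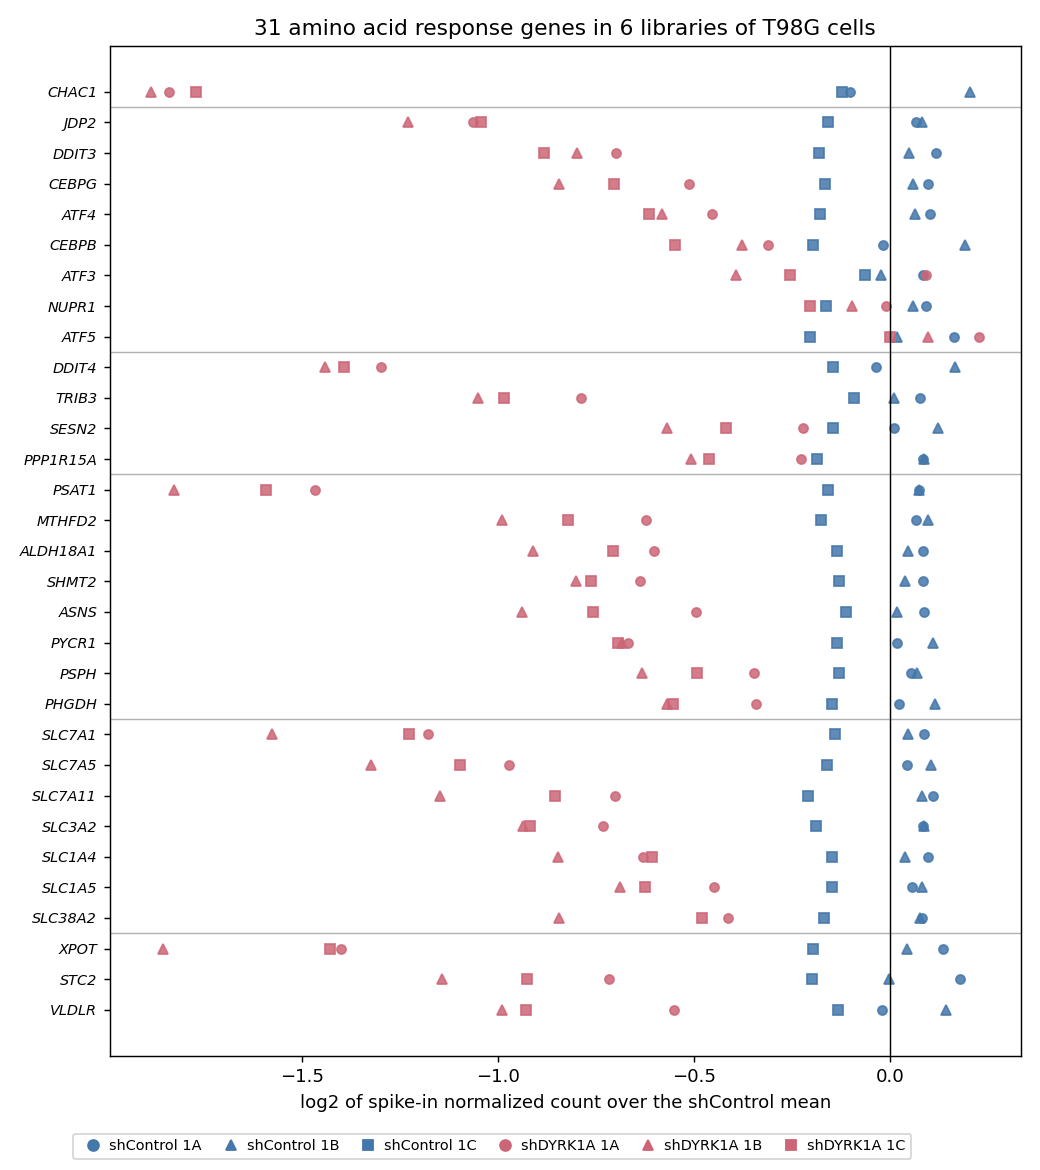
Spike-in normalized count of each gene in each library as log2 of its ratio to the shControl mean, for 31 genes grouped by role (from top: glutathione breakdown, transcription factors, stress regulators, enzymes, transporters, other targets), with shControl in blue and shDYRK1A in red. The shDYRK1A libraries lie to the left of each shControl library for all but ATF3, NUPR1 and ATF5. On this scale the median log2 fold change of all genes was -0.40, and the share of all genes separated in this way was not counted.

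Among the 8 transcription factors, 2 were called lower, JDP2 and DDIT3, where 14.3% of all genes were. Their median log2 fold change was -0.48. After TMM scaling 1 was called lower, where 1.93% of all genes were, and the median was -0.07, near the 0.00 of all genes. JDP2, a repressor of the AP-1 family that binds as a dimer, had 782, 790 and 670 normalized counts in shControl and 357, 319 and 362 in shDYRK1A. Its control mean of 747 ± 67.0 came down to 346 ± 23.9 (SD, n = 3), with a log2 fold change of -1.11 (SE 0.17). JDP2 also had the lowest level per kilobase of exon among the 30 genes. Like CHAC1 it passed the filter through shControl. On the filter's scale, normalized counts over the mean library size, its shDYRK1A mean was below 10. DDIT3, which encodes the factor CHOP, had 1931, 1838 and 1569 in shControl and 1095, 1023 and 965 in shDYRK1A. The log2 fold change of DDIT3 was -0.79 (SE 0.15), and it was -0.38 after TMM scaling.

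CEBPG, a small C/EBP protein that pairs with ATF4, had a log2 fold change of -0.68 (SE 0.15), just short of the threshold. CEBPB, another C/EBP factor, had a log2 fold change of -0.41 (SE 0.14) on the spike-in scale and 0.00 after TMM scaling, at the median of all genes on both scales. The remaining 3 factors stood above that median. ATF3, a stress-induced repressor, had 522, 485 and 471 normalized counts in shControl and 525, 375 and 413 in shDYRK1A, and the groups overlapped. NUPR1, a small stress-induced chromatin protein, had 2794, 2730 and 2343 against 2605, 2449 and 2276, again with overlap. ATF5, an ATF4 relative that is also translated through upstream reading frames, had 1209, 1094 and 938 against 1264, 1155 and 1080. Among the 30 genes past the filter it was the single one with a higher mean in shDYRK1A on the spike-in scale.

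In CPM the 3 genes were separated in the upward direction. ATF5 had 25.1, 22.9 and 23.4 CPM in shControl and 34.5, 37.0 and 32.4 in shDYRK1A. NUPR1 had 58.1, 57.1 and 58.4 against 71.1, 78.4 and 68.3, and ATF3 had 10.9, 10.1 and 11.8 against 14.3, 12.01 and 12.4. Their log2 fold changes were 0.11, -0.10 and -0.17 on the spike-in scale and 0.52, 0.31 and 0.22 after TMM scaling, so the direction of NUPR1 and ATF3 depends on the scale. Per 100 ATF4 counts, ATF5 had 4.31, 4.01 and 4.07 counts in shControl and 6.62, 6.62 and 6.33 in shDYRK1A, the opposite of CHAC1.

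Of the 4 stress regulators, DDIT4 and TRIB3 were called lower, as were 14.3% of all genes, and SESN2 and PPP1R15A were not. The median was -0.67. After TMM scaling 1 was called lower, as were 1.93% of all genes, and the median was -0.27. DDIT4, also known as REDD1, restrains the growth kinase mTORC1. It had 23004, 26436 and 21320 normalized counts in the control libraries and 9595, 8691 and 8980 in the silenced ones. Of the control level 38.5% was left, with a log2 fold change of -1.38 (SE 0.13) and of -0.97 after TMM scaling. Per 100 ATF4 counts DDIT4 had 90.5 ± 7.59 in shControl and 50.9 ± 1.51 in shDYRK1A (SD, n = 3). TRIB3, a pseudokinase that binds ATF4 and CHOP and dampens the response, had 7240, 6923 and 6450 normalized counts in shControl and 3979, 3316 and 3469 in shDYRK1A. The log2 fold change of TRIB3 was -0.94 (SE 0.14).

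SESN2, a leucine sensor upstream of mTORC1, and PPP1R15A, the inducible subunit (GADD34) that brings the phosphatase to eIF2alpha, were at the median of all genes. Their log2 fold changes were -0.40 and -0.39 on the spike-in scale and 0.00 and 0.01 after TMM scaling. SESN2 had 25.4, 27.6 and 27.4 CPM in shControl and 28.3, 26.2 and 27.3 in shDYRK1A. For PPP1R15A the values were 67.2, 67.7 and 66.8 CPM against 71.0, 68.6 and 66.4. Per 100 PPP1R15A counts DDIT3 had 58.4 ± 1.5 counts in shControl and 44.5 ± 2.93 in shDYRK1A (SD, n = 3). This ratio restates the fold changes by which the genes were chosen and is a description.

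The enzymes include the 3 steps by which cells make serine from a glycolytic intermediate. The middle step, PSAT1 (phosphoserine aminotransferase, ENSG00000135069, chromosome 9, 78297143 to 78330093, plus strand), was the second most reduced listed gene. It had 10677, 10688 and 9099 normalized counts in shControl and 3674, 2862 and 3368 in shDYRK1A, with a log2 fold change of -1.62 (SE 0.14) and of -1.22 after TMM scaling. The enzymes before and after it in the pathway stood near the median of all genes. PHGDH, the first step, had 16225, 17298 and 14432 against 12602, 10777 and 10886, a log2 fold change of -0.49 (SE 0.13). PSPH, the last step, had 3022, 3057 and 2663 against 2290, 1878 and 2071, also -0.49 (SE 0.14). After TMM scaling PHGDH was at -0.08, with overlap in CPM, and PSPH at -0.09. Per 100 PHGDH counts PSAT1 had 65.8, 61.8 and 63.1 counts in shControl and 29.2, 26.6 and 30.9 in shDYRK1A. The ratio of these messengers differed between the conditions, which restates the fold changes by which the genes were chosen. Counts assigned to the pseudogene PSPHP1 came to 9.38% of those of PSPH, whose value is uncertain to that extent.

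Downstream of serine, SHMT2 and MTHFD2 carry its carbon into the mitochondrial folate cycle. MTHFD2 had 10350, 10581 and 8758 normalized counts in shControl and 6425, 4983 and 5597 in shDYRK1A, a log2 fold change of -0.80 (SE 0.13). SHMT2 had 13954, 13525 and 12018 against 8459, 7555 and 7761, a log2 fold change of -0.73 (SE 0.13). Both were called lower, and unlike PSAT1 and PHGDH they kept their ratio within the spread of the libraries, at 75.1 ± 2.79 MTHFD2 counts per 100 SHMT2 counts in shControl and 71.3 ± 5.04 in shDYRK1A (SD, n = 3). ALDH1L2, the mitochondrial formyltetrahydrofolate dehydrogenase, had 0, 1 and 2 raw counts in shControl and 2, 0 and 2 in shDYRK1A, under the limit of 3 counts in each library.

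ALDH18A1 and PYCR1 catalyse the first and last steps from glutamate to proline. ALDH18A1 had 6104, 5946 and 5244 normalized counts in shControl and 3794, 3066 and 3533 in shDYRK1A, and was called lower. PYCR1 had 6127, 6523 and 5505 against 3810, 3768 and 3740, and was not. Their log2 fold changes, -0.73 (SE 0.14) and -0.68 (SE 0.14), lie on either side of the threshold, and their ratio overlapped between the conditions. ASNS, asparagine synthetase, a classical CARE-driven gene, had 7488, 7137 and 6521 against 4999, 3676 and 4165, with a log2 fold change of -0.72 (SE 0.14). In GENCODE v29, 44.6% of the exonic bases of ASNS also belong to AC079781.5 on the same strand, a gene with no row in the count tables used here. Just past the threshold were ASNS, SHMT2 and ALDH18A1 at -0.72, -0.73 and -0.73, and just short of it SLC1A4, PYCR1 and CEBPG at -0.69, -0.68 and -0.68. The 3 past it lost their call without shControl 1A or without shDYRK1A 1B, where they lay between -0.699 and -0.621. The 3 short of it passed without shControl 1C. Of the 8 enzymes past the filter, 5 were called lower, with a median of -0.73, where 14.3% of all genes were called. After TMM scaling 1 was called lower, where 1.93% of all genes were, and the median was -0.33.

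The 7 transporters had a median of -0.86, and 4 were called lower, where 14.3% of all genes were. After TMM scaling the median was -0.45, and 2 were called lower, where 1.93% of all genes were. SLC7A1, the carrier of arginine and lysine (ENSG00000139514, chromosome 13, 29509410 to 29595688, minus strand), had 5954, 5779 and 5080 normalized counts in shControl and 2477, 1880 and 2395 in shDYRK1A. Of its control level 40.2% was left, a log2 fold change of -1.32 (SE 0.14) and of -0.92 after TMM scaling. SLC7A5, also known as LAT1, which exchanges glutamine for leucine and other large neutral amino acids, had 28256, 29485 and 24531 against 13976, 10954 and 12822. Its log2 fold change was -1.12 (SE 0.13), and it was -0.72 after TMM scaling. SLC7A11, the xCT cystine importer that feeds glutathione synthesis, had 26465, 25941 and 21213 against 15086, 11067 and 13580. SLC3A2, the heavy chain that both light chains need to reach the plasma membrane, had 27307, 27353 and 22606 against 15493, 13468 and 13636. For SLC7A11 and SLC3A2 the log2 fold changes were -0.89 (SE 0.13) and -0.86 (SE 0.13).

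SLC3A2 pairs with either light chain, and the ratios of the messengers were compared within each library. Per 100 SLC3A2 counts SLC7A5 had 104, 108 and 109 counts in shControl and 90.2, 81.3 and 94.0 in shDYRK1A, without overlap. SLC7A11 had 96.9, 94.8 and 93.8 against 97.4, 82.2 and 99.6, where shDYRK1A 1B alone lay below the controls. SLC1A5, the glutamine importer, SLC1A4, a carrier of alanine, serine and cysteine, and SLC38A2, which takes up small neutral amino acids, were not called. Their log2 fold changes were -0.58 (SE 0.13), -0.69 (SE 0.15) and -0.57 (SE 0.13). Per 100 SLC1A5 counts SLC7A5 had 138 ± 1.99 counts in shControl and 94.6 ± 5.37 in shDYRK1A (SD, n = 3), so the exchanger and the importer of its exchange substrate were unequally reduced. In SLC38A2, shDYRK1A 1B had 563 CPM, and 1A and 1C had 647 and 681, against 695 to 701 in shControl.

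**Figure D3:**
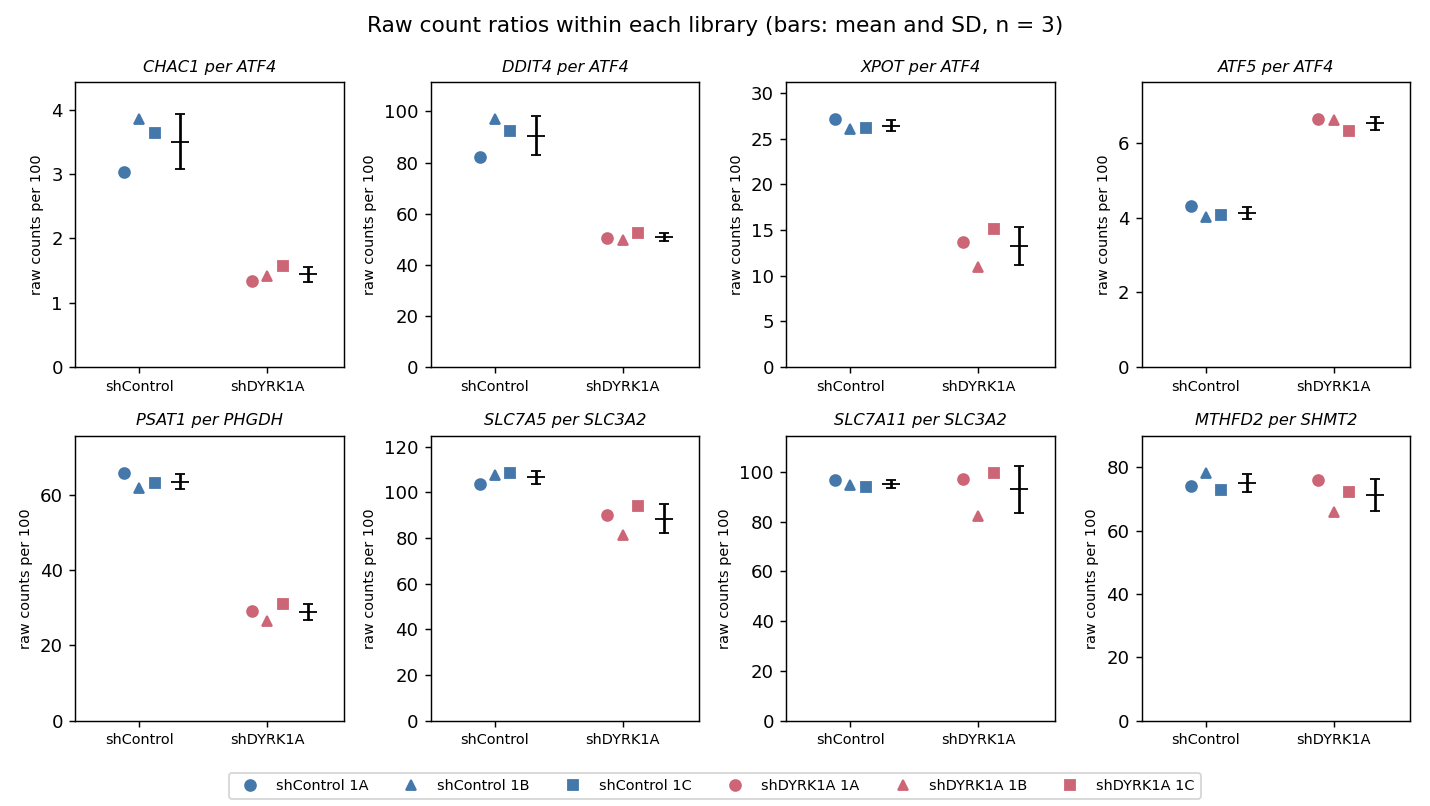
Raw counts of one gene per 100 raw counts of another in each library, for 8 pairs of listed genes, on axes that start at 0; crossbars show the mean and SD of 3 libraries. CHAC1, DDIT4 and XPOT are lower against ATF4 in shDYRK1A and ATF5 is higher, PSAT1 is lower against PHGDH (63.6 to 28.9), and the pairs SLC7A11 with SLC3A2 and MTHFD2 with SHMT2 overlap.

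Among the other targets, XPOT (exportin-t, which carries tRNA out of the nucleus, ENSG00000184575, chromosome 12, 64404350 to 64451127, plus strand) was the third most reduced listed gene. It had 7594, 7114 and 6026 normalized counts in shControl and 2616, 1912 and 2569 in shDYRK1A, a log2 fold change of -1.55 (SE 0.14). Of its control level 34.2% was left, and its ratio to ATF4 came down from 26.4 ± 0.577 to 13.2 ± 2.09 counts per 100 (SD, n = 3). STC2, a secreted glycoprotein, had 8230, 7257 and 6333 against 4422, 3294 and 3826, a log2 fold change of -0.92 (SE 0.14). VLDLR, a lipoprotein receptor, was below the filter, with 374, 419 and 346 normalized counts in shControl and 259, 191 and 199 in shDYRK1A. The log2 fold change of VLDLR without the filter was -0.81 (SE 0.18).

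Levels were compared between genes as normalized counts per kilobase of exon. In shControl DDIT4 and ATF4 were highest, at 11461 ± 1267 and 10393 ± 1065 (SD, n = 3), and their libraries overlapped. SLC1A5, SLC7A5, SLC3A2, SLC38A2 and PSAT1 followed, from 5978 to 4641, each overlapping with its neighbour in this order. JDP2 and ATF3 were lowest, at 120 ± 10.8 and 122 ± 6.55. The listed genes were abundant: 25 of the 30 lay above the median of all genes, 389 per kilobase, and 7 lay in the top 5%, above 3406. CHAC1, at 444 ± 57.9, was in place 25 of 30 and overlapped with NUPR1 before it and ATF5 after it. In shDYRK1A ATF4 was first at 7108 and DDIT4 second at 4416, and CHAC1 was in place 28 at 124.8, so the gene with the lowest fold change was also one of the least abundant. Some exons overlap genes on the opposite strand, among them 41.2% of the exonic bases of DDIT4 (DDIT4-AS1), 33.2% of MTHFD2 and 31.6% of DDIT3. The libraries were stranded, but the strand setting of the counting was not given in the sources used here, so reads of such partners cannot be told apart from those of the genes.

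**Figure D4:**
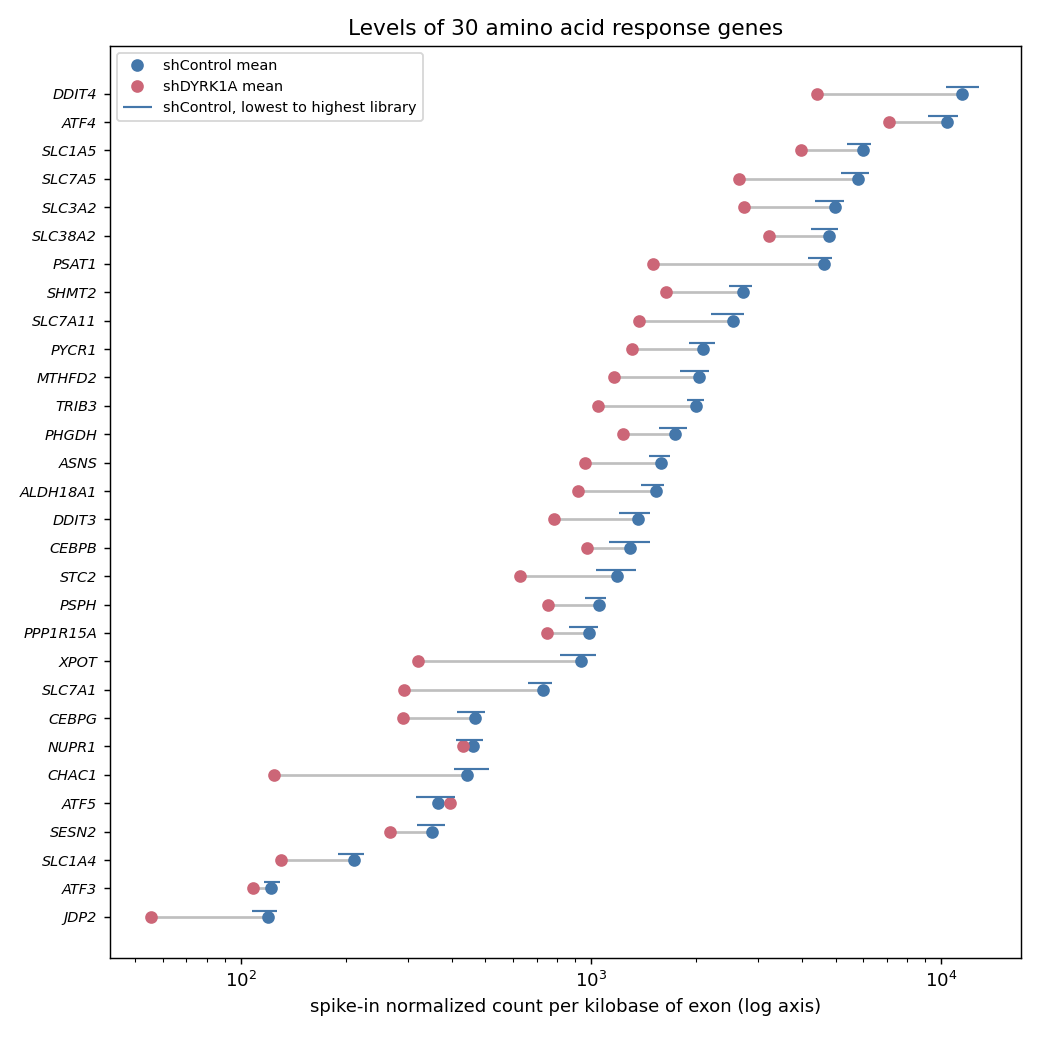
Mean spike-in normalized count per kilobase of exon (log axis) of 30 genes in shControl (blue) and shDYRK1A (red), ordered by shControl, with the range of the 3 shControl libraries as a thin line above each point. The grey line is the step between conditions: it is longest for CHAC1 (444 to 124.8), PSAT1 (4641 to 1509) and XPOT (939 to 321), and ATF5 alone steps to the right.

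The wider pathway was read from 9 lists of genes that are no members of the group above, with 106 genes tested when each is counted once. Of these, 26 fell and 1 rose at the same thresholds as above, where 14.3% of all genes were called lower and 0.278% higher. Their median log2 fold change was -0.48, against -0.40 for all genes. The median after TMM scaling was -0.08. On that scale 2 of the 106 were called lower, among them SLC43A1, and 1 higher, SLC43A2. These counts were near the shares of all genes, 1.93% called lower and 1.25% higher. All adjusted p-values below are from edgeR's quasi-likelihood test with Benjamini-Hochberg adjustment over 9697 genes.

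Upstream of ATF4, 2 of 15 genes for eIF2alpha kinases, eIF2, eIF2B and the eIF2alpha phosphatase fell, with a median of -0.43. Both values were near those of all genes, of which 14.3% fell, with a median of -0.40. EIF2S3, the gamma subunit of eIF2, fell from 11865 ± 1137 to 5869 ± 575 normalized counts (SD, n = 3; adjusted p = 2.48e-12). PPP1R15B, the constitutive counterpart of PPP1R15A, fell from 3926 ± 306 to 1867 ± 306 (adjusted p = 3.58e-12). The log2 fold changes of EIF2S3 and PPP1R15B were -1.02 and -1.07, while PPP1R15A was at -0.39. None of the 4 eIF2alpha kinases was called: EIF2AK1, EIF2AK2, EIF2AK3 and EIF2AK4, named here for their role and outside the rule for named genes, were at -0.13, -0.60, -0.48 and -0.33. All of these are messenger levels. By Western blot the study reported that phosphorylation of eIF2alpha was unchanged in T98G cells after DYRK1A silencing.

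Glutathione synthesis and turnover, the pathway that CHAC1 acts on, had the most calls for its size outside the listed genes, 5 of 10, with a median of -0.69. Of all genes 14.3% were called lower. GCLC and GCLM, the catalytic and modifier subunits of the rate-limiting ligase, fell by 1.05 and 1.06 on the log2 scale. GCLC went from 22491 ± 2687 to 10865 ± 1492 normalized counts (SD, n = 3; adjusted p = 1.35e-13) and GCLM from 10053 ± 1096 to 4813 ± 786 (adjusted p = 3.13e-13). CBS, which makes cystathionine, fell by 0.80 (adjusted p = 9.76e-06). CBS passed the filter through shControl, with its shDYRK1A mean below 10 on the filter's scale. GGT5, a membrane enzyme that cleaves extracellular glutathione, fell by 0.73 (adjusted p = 8.17e-06), but it lost the call when shControl 1A (-0.66), shControl 1B (-0.68) or shDYRK1A 1B (-0.69) was left out. After TMM scaling 0 of the 10 were called, where 1.93% of all genes were called lower and 1.25% higher, and the median was -0.29.

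Among 12 other genes of serine, glycine and one-carbon metabolism 3 fell, with a median of -0.57, where 14.3% of all genes fell. They included MTHFD1, the cytosolic folate enzyme (-0.87, adjusted p = 5.92e-09), and TYMS, which makes thymidylate and is also known as a gene of S phase (-0.82, adjusted p = 1.68e-08). Of 11 other genes of proline, glutamate, aspartate and alanine metabolism 4 fell, against the same 14.3% of all genes, with a median of -0.45. They included GPT2, the mitochondrial alanine aminotransferase, which went from 5699 ± 613 to 2680 ± 329 normalized counts (SD, n = 3; log2 fold change -1.09, adjusted p = 4.63e-13). ASS1, argininosuccinate synthase, was at -0.81 (adjusted p = 3.01e-07) and GLUL, glutamine synthetase, at -0.81 (adjusted p = 4.36e-08). ASS1 and EIF2S3 have near-identical copies elsewhere in the genome that can share their reads.

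Of 15 other amino acid transporters 5 fell and 1 rose, with a median of -0.50, where 14.3% of all genes fell and 0.278% rose. SLC43A1 and SLC43A2, related carriers of large neutral amino acids, moved in opposite directions. SLC43A1 fell from 724 ± 75.9 to 327 ± 25.4 normalized counts (SD, n = 3; log2 fold change -1.15, adjusted p = 2.18e-10). It passed the filter through shControl, with its shDYRK1A mean below 10 on the filter's scale. SLC43A2 rose from 653 ± 99.5 to 1068 ± 21.0 (log2 fold change 0.71, adjusted p = 2.94e-05), and its call was lost without shControl 1A (0.68) or without shControl 1C (0.62). SLC38A1, a glutamine carrier related to SLC38A2, was at -1.003 (adjusted p = 5.55e-12). SLC6A9, the glycine transporter, fell by 0.84 (adjusted p = 3.31e-07).

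All 12 tRNA synthetase genes tested lay below zero on the spike-in scale and passed the adjusted p alone, as did 63.4% of all genes, and 2 of the 12 also passed the fold threshold, as did 14.3% of all genes. These were GARS at -0.71 (adjusted p = 7.30e-07) and IARS at -0.80 (adjusted p = 2.36e-08). The median of the 12 was -0.58, and it was -0.18 after TMM scaling. On the TMM scale 0 of the 12 were called, where 1.93% of all genes were called lower and 1.25% higher. By the adjusted p alone 9 were lower on that scale, as were 28.6% of all genes. Among 12 other ATF, CREB and C/EBP factors, with a median of -0.36, CREB3L2 alone fell (-0.95, adjusted p = 4.70e-10), where 14.3% of all genes did. Of 14 genes of the ATF6 and XBP1 branches of the unfolded protein response 3 fell, where 14.3% of all genes did. The median of the 14 was -0.46. The 3 were XBP1, the factor of the XBP1 branch (-0.91, adjusted p = 1.41e-09), MANF (-0.75, adjusted p = 1.36e-06) and DNAJC3 (-0.71, adjusted p = 6.43e-06). The 14 tested paralogs closest to listed genes had a median of -0.26, above that of all genes. Of these paralogs 3 fell, where 14.3% of all genes did: LRP8 (-0.95, adjusted p = 3.36e-10), PPP1R15B and SLC38A1. LRP8 is a relative of VLDLR. GARS and DNAJC3 lost their call when 1 of shControl 1A, shControl 1B and shDYRK1A 1B was left out, where they lay between -0.699 and -0.621, and MANF without shControl 1A, at -0.69. After TMM scaling the medians of the 9 lists lay between -0.29 for the glutathione list and 0.15 for the paralogs, and that of the other ATF, CREB and C/EBP factors was 0.04, so the direction of these factors and of the paralogs depends on the scale.

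**Figure D5:**
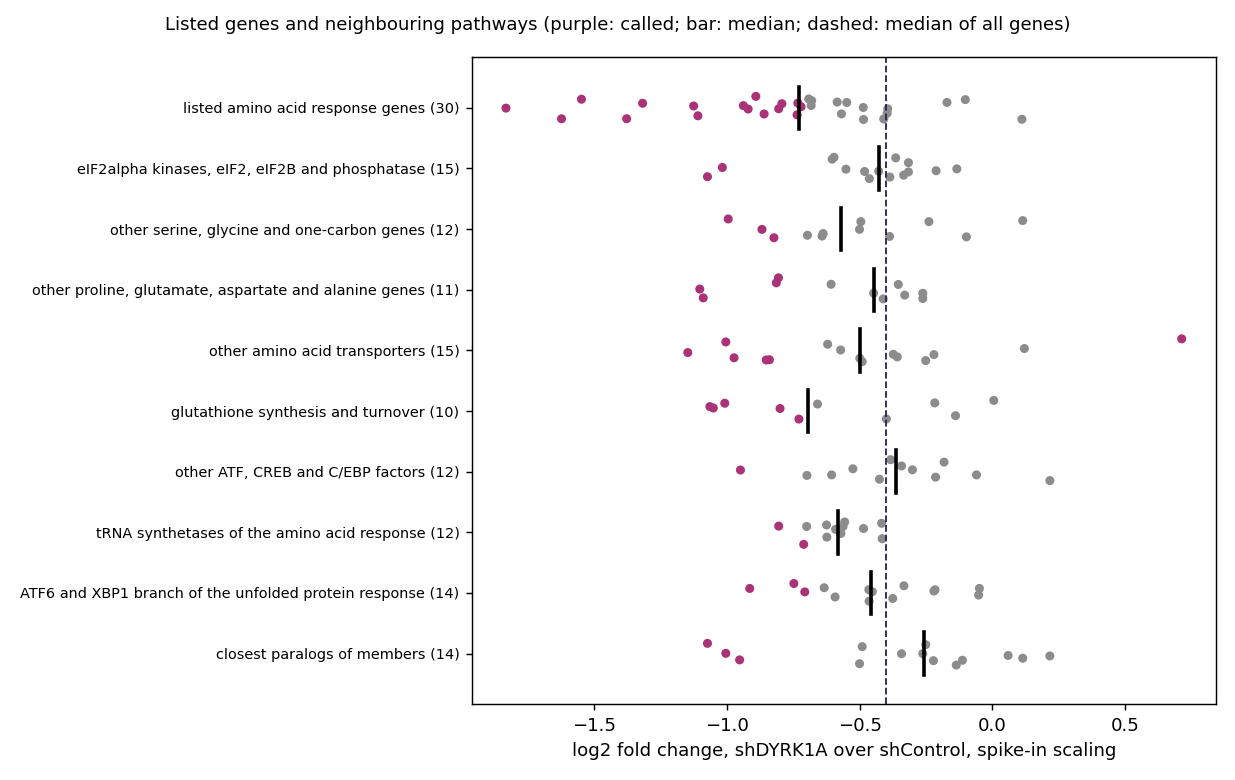
Log2 fold change on the spike-in scale of the 30 listed genes and of the genes in 9 pathway lists, 1 point a gene, with the number tested in brackets; purple points were called, black bars are medians and the dashed line is the median of all genes, -0.40. The listed genes have their median at -0.73, the glutathione list follows at -0.69, and the paralogs lie at -0.26.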

How the data were processed

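The authors deposited raw gene counts per library (stranded mRNA libraries, aligned with STAR to hg38 and dm3 per the labels) and a table of normalized signal, the same counts divided by 1 size factor per library that they derived from fly reads with DESeq2. Annotation release and counting strand were not given in the sources used here. The implied size factors scaled the raw counts in edgeR 4.0.16 (glmQLFit and glmQLFTest, robust; R 4.3.3). Genes with a mean above 10 CPM of the mean library size were tested, with Benjamini-Hochberg adjustment, and called where the log2 fold change exceeded 0.7 in either direction with an adjusted p under 0.05. The standard error is the fold change over the square root of F. TMM and median-of-ratios scaling, DESeq2 1.42.0, other filters, a replicate block and leaving out each library were alternatives. All 32 listed genes are named; from each pathway list the called genes are, or the 2 lowest and 2 highest where more than 4 were called; some that this rule names are not reported here. Members and lists were chosen with earlier results of these data known. The deposited comparison of the authors (fold changes and p-values) was not used. Coordinates matched GENCODE v29 (GRCh38) for 95.8% of genes.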

Additional observations from a re-analysis of the deposited data

How the results depend on the processing

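The number of listed genes called lower, 16 of 30, was 7 with TMM and 7 with median-of-ratios scaling, since both take out the shift of all genes, 27 with the adjusted p alone, and 13 to 19 with 1 library left out. Of all genes 14.3% were called lower in the main setting, 1.93% with TMM, 1.89% with median-of-ratios and 63.4% with the adjusted p alone. With 1 library left out the share ran from 9.36% (without shDYRK1A 1B) to 21.6% (without shControl 1C). ASNS, SHMT2 and ALDH18A1 lost the call without shControl 1A or without shDYRK1A 1B, while CEBPG, PYCR1 and SLC1A4 gained it without shControl 1C. The median of the listed genes was -0.33 with TMM and -0.32 with median-of-ratios scaling. Pathway genes called lower, 26, came to 2, 1 and 79 with TMM, median-of-ratios and the adjusted p alone, and to 22 to 36 with 1 library left out. Those called higher came to 0 to 1 with 1 library left out, being 0 without shControl 1A or shControl 1C. DYRK1A moved from -0.73 to -0.335 and -0.332 with TMM and median-of-ratios scaling, and to -0.855 to -0.615 with 1 library left out. It fell short of the threshold of 0.7 when shControl 1A, shControl 1B or shDYRK1A 1B was dropped. Fewer libraries enter there, and the cause was not tested further. For the same scalings the direction was turned in ATF3 (0.22 and 0.22), NUPR1 (0.31 and 0.31), SESN2 (0.003 and 0.007), PPP1R15A (0.009 and 0.013) and CEBPB (0.0 and 0.003).

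The letters of the libraries were not taken as a pairing: deviations of same-letter libraries correlated at 0.151, 0.073 and 0.128, although each library correlated best with its own letter. With the replicate block 16 listed genes were called lower, the same genes, and DESeq2 gave the same 16. VLDLR was called as well with filterByExpr or with no filter, giving 17. Of all genes 14.4% were called lower with the replicate block, 14.3% with DESeq2, 14.2% with filterByExpr and 7.71% with no filter.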
